A study of Mus musculus with 192 samples.

Results

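Cd47, Cd55 and B2m encode surface proteins by which a cell marks itself to the immune system, and they were 3 of the 95 genes measured by quantitative PCR in single cells that had reached a skin wound from the circulation. The 3 genes were chosen by their names in the deposited table, with earlier results of these data known, so their shares and levels below are descriptions with no test. Wild-type (WT) mice and mice that lack Cxcl12 in the endothelium (EKO) were each joined surgically, by parabiosis, to a donor mouse that expresses green fluorescent protein (GFP). Cells negative for lineage antigens and positive for GFP were sorted from wounds on the back of the recipients, and the genotype therefore names the recipient and not the cell. The study asked which progenitor cells were recruited differently to wounds of EKO and control recipients. The table holds 96 assays in 192 cells, 96 from WT and 96 from EKO recipients, in 2 sets, A and B, each with 48 WT and 48 EKO cells.

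The labels do not tie cells to animals. Each genotype was therefore counted as 1 sample, and no p-value or standard error was taken from cells. In both sets the titles number the WT cells 1 to 48 and the EKO cells 49 to 96. If these numbers are positions on a chip, genotype and position cannot be told apart. The sources used here do not give the driver of the endothelial deletion, the day after wounding, the lineage antigens or the sex and age of the mice. The lineage gate could not be checked, because its antigens are not given. Ptprc, which encodes the pan-leukocyte antigen CD45, was detected in 31 of the 46 collagen-high cells defined below and in 71 cells without high collagen. The myeloid genes Itgam and Adgre1 were detected in 1 and 0 of these 46 cells and in 10 and 13 of these 71. They were detected in 3 and 1 of the 53 cells of neither class.

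CD47 is a membrane protein that engages SIRP-alpha on macrophages and restrains phagocytosis, and it also binds thrombospondin and associates with integrins. CD55, or decay-accelerating factor, is a membrane-anchored protein that speeds the decay of complement convertases on the cell's own surface. Beta-2-microglobulin, encoded by B2m, is the light chain of MHC class I molecules, whose display of peptides is read by T cells and natural killer cells, and its transcript is often used as a reference in PCR.

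The assay for Cd47 was Mm00495011_m1, that for Cd55 Mm00438377_m1 and that for B2m Mm00437762_m1. In the RefSeq annotation of mouse assembly GRCm38.p6, Cd47 lies at chr16:49851328-49912503, Cd55 at chr1:130429798-130465009 and B2m at chr2:122147687-122153082. All are protein-coding. The sources used here do not place the amplicons within the genes. The promoters are shown as a description of the genes. Whether their letters bear on the levels described below was not tested. Each line gives 250 bases before and 50 bases from the transcript start used in the promoter table, 5′ to 3′ on the gene's strand, from RefSeq on GRCm38.p6. For B2m that start is the 5′ end of the gene span given above, while for Cd47 and Cd55 it lies inside the span, downstream of its 5′ end. Capitals mark matches to 4 motifs on either strand. The windows are chr16:49855404-49855703 on the plus strand for Cd47, for which 2 windows are listed and the first was taken, chr1:130462695-130462994 on the minus strand for Cd55, and chr2:122147437-122147736 on the plus strand for B2m.
Cd47: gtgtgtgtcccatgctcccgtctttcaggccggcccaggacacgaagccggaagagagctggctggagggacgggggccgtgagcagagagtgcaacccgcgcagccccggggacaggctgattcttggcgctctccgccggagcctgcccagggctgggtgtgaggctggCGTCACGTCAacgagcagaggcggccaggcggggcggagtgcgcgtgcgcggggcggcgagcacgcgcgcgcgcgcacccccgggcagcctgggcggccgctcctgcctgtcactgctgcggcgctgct
Cd55: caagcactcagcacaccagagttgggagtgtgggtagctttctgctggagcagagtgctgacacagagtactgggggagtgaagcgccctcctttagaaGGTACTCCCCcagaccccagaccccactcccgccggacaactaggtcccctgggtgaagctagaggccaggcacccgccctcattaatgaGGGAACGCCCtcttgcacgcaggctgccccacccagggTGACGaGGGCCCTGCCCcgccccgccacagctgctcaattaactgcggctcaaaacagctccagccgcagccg
B2m: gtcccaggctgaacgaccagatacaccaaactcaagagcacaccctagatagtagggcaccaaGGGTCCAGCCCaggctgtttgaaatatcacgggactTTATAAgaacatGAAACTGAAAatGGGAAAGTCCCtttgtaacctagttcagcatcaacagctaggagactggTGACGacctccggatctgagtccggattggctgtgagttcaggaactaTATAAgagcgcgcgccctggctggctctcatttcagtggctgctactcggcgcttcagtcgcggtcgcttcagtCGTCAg

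The motifs searched were GGGNNNNNCC, of the NF-kappa-B type, GAAANNGAAA, of the interferon-stimulated type, TGACG, a cAMP-response type, and TATAA, of the TATA box type. They were found in 50.8%, 3.44%, 20.8% and 24.9% of the 32851 promoter windows of 300 bases in the same table. The B2m window held GAAACTGAAA at bases -139 to -130, GGGAAAGTCC at -127 to -118 and TATAA at -30 to -26. It also held an NF-kappa-B type match from -187, TATAA at -150 to -146, TGACG at -78 to -74 and CGTCA at 45 to 49. The GAAACTGAAA match was the only one of its motif among the 3 windows. The Cd55 window held matches of the NF-kappa-B type from -151, -61 and -17, those at -61 and -17 overlapping on both strands, and TGACG at -23 to -19. The Cd47 window held neither of the longer motifs, but 2 adjoining CGTCA matches, which are TGACG on the other strand, from -79 to -70. Its GC content was 74%, against 63.3% for Cd55 and 52.3% for B2m. A match is a description of letters and not a binding site.

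A reaction was called detected when its Ct, the cycle at which fluorescence crosses the threshold, was below 40, and a lower Ct means more transcript of that gene. Ct values of different assays were not set against each other, since the efficiency of each assay is not given. Cells with 10 or more detected assays were kept, 93 WT and 77 EKO. Of the 22 cells left out, 19 were EKO. Kept cells detected from 10 to 70 assays, with a median of 21 in WT and 34 in EKO. The number of assays detected moved with all 3 genes, and it is set beside many of the comparisons below. Intervals cover counting error only.

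B2m was the most widely detected of the 3 genes and Cd55 the least. B2m was detected in 152 of 170 kept cells (89.4%, exact 95% interval 83.8 to 93.6%), which placed it 7th of 96 assays. Cd47 was detected in 106 cells (62.4%, 54.6 to 69.7%), 15th of 96. Cd55 was detected in 53 cells (31.2%, 24.3 to 38.7%), 44th of 96. The 3 intervals do not overlap, but each holds the shares of other assays: 3 for B2m, 6 for Cd47 and 16 for Cd55. Ct of B2m ran from 9.71 to 30.97 with a median of 14.2 ± 3.50 (SD over cells), that of Cd47 from 13.6 to 31.9 with a median of 17.3 ± 2.53, and that of Cd55 from 14.02 to 30.3 with a median of 19.7 ± 2.76. Only 2 values of each gene came later than cycle 25, so nearly all detections lay far from the limit of 40.

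The 3 genes were detected in a nearly nested order. In 50 of 170 kept cells all 3 were detected (29.4%), in 55 Cd47 and B2m without Cd55 (32.4%), and in 44 B2m alone (25.9%). Only 3 cells had Cd55 and B2m without Cd47, 1 cell had Cd47 alone, and in 17 none was detected (10%). Every cell that detected Cd55 also detected B2m, and 105 of the 106 that detected Cd47 did. The median number of assays detected climbed along this order, from 12 in cells with none to 17 with B2m alone, 34 with B2m and Cd47, and 51 with all 3.

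Detection of each gene began at a different number of assays. Among the 22 cells with fewer than 10 assays, B2m was detected in 2 and Cd47 and Cd55 in 0 of 22 cells (a limit of 3 counts is 13.6%, and the exact upper bound 15.4%). Among the 75 cells with 10 to 23 assays, B2m was detected in 57 (76%, 64.75 to 85.1%), Cd47 in 12 (16%, 8.55 to 26.3%) and Cd55 in 6 (8%, 2.99 to 16.6%). B2m thus stood alone in most of these low-yield cells.

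Among the 36 cells with 24 to 39 assays, B2m was detected in 36 and Cd47 in 35, while Cd55 was detected in 5 (13.9%, 4.67 to 29.5%). Among the 59 cells with 40 or more assays, B2m and Cd47 were detected in all 59, and Cd55 in 42 (71.2%, 57.9 to 82.2%). Cd47 therefore went from a minority to nearly all cells at about 24 assays, and Cd55 was detected in most cells only at 40 and more. These bins count the 3 genes themselves. When the bins were built from the 93 other assays, Cd47 was detected in 14 of 77, 36 of 36 and 56 of 56 cells of the upper 3 bins, and Cd55 in 6, 7 and 40.

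**Figure D1:**
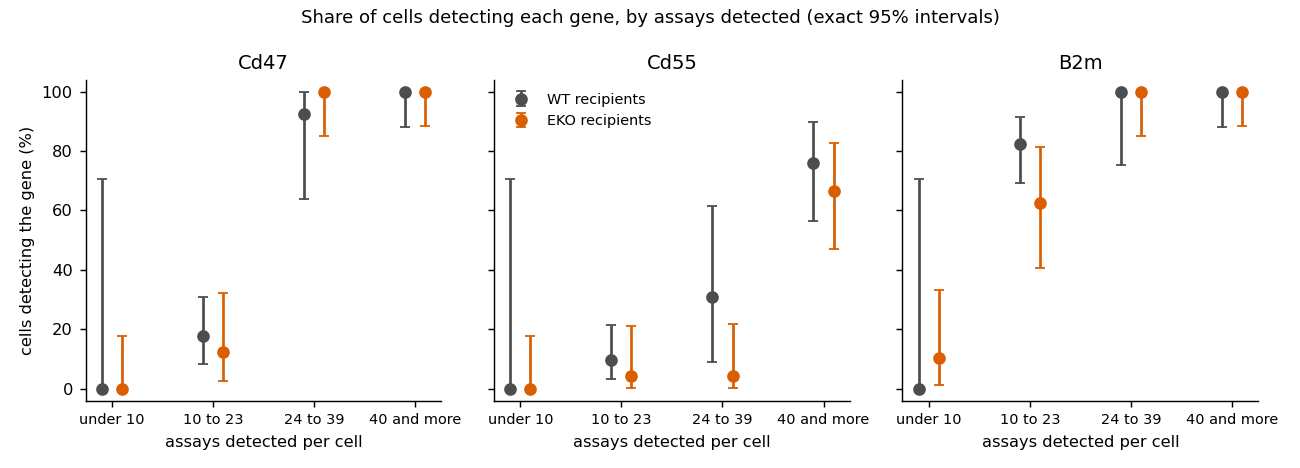
Share of cells, in percent, that detected Cd47, Cd55 or B2m in 4 bins of assays detected per cell, for WT (grey) and EKO (orange) recipients, with exact 95% intervals. B2m reaches 100% from 24 assays on, Cd47 is near or at 100% there, and Cd55 passes 50% only in cells with 40 or more assays.

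Levels followed the same axis. Median Ct of B2m was 18.7 in cells with 10 to 23 assays, 13.5 in those with 24 to 39 and 13.3 in those with 40 or more. For Cd47 the medians were 19.8, 17.6 and 16.9, and for Cd55 21.4, 20.7 and 19.3. The step in B2m between the lower pair of these bins, about 5 cycles, had no counterpart of that size between the upper pair.

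B2m Ct split the cells almost as the number of assays did. Of the 95 cells with at least 24 assays, 94 had B2m before cycle 16, and of the 75 kept cells with 10 to 23 assays, 2 did. The limit of 16 was chosen after the values were seen, and 16 cells lay within 1 cycle of it. Among the 96 cells with early B2m, Cd47 was detected in 94 (97.9%, 92.7 to 99.7%) and Cd55 in 47 (49.0%, 38.6 to 59.4%). Among the 56 with B2m detected at 16 or later, Cd47 was detected in 11 (19.6%, 10.2 to 32.4%) and Cd55 in 6 (10.7%, 4.03 to 21.9%). Actb, the cytoskeletal actin gene and another common reference, had a median Ct of 10.2 in the first group and 14.3 in the second. The early group held 43 WT and 53 EKO cells and the late group 41 WT and 15 EKO cells, so late B2m was found in 44.1% of kept WT and 19.5% of kept EKO cells.

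**Figure D2:**
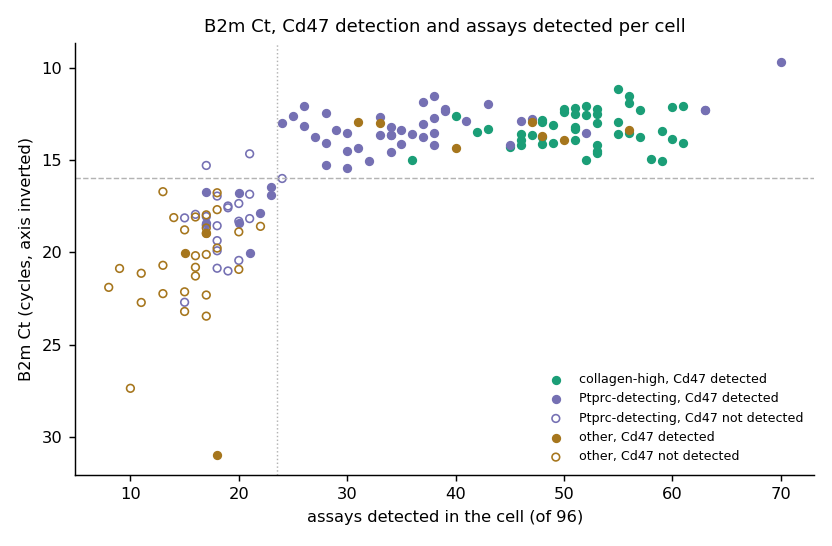
B2m Ct (cycles, axis inverted so that higher levels are up) against the number of assays detected, 1 point per cell with B2m detected; colour gives the class of cell, and filled points are cells that also detected Cd47. The dashed line is cycle 16 and the dotted line separates 23 from 24 assays; 94 of 95 cells to the right of it lie above the dashed line, and nearly all of these are filled.

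Cells were sorted into classes by 2 other genes. Collagen-high cells had Col1a1, the main fibrillar collagen chain of skin, before cycle 16. Among them the latest Col1a1 Ct was 14.3, and the earliest among the rest was 17.04, so no kept cell lay close to the limit. Of the kept cells, 46 were collagen-high (25 WT, 21 EKO), 71 detected Ptprc without high collagen (35 WT, 36 EKO) and 53 were neither (33 WT, 20 EKO). Of the 46 collagen-high cells, 31 also detected Ptprc. The median number of assays was 52, 28 and 15 in the 3 classes, so class and yield moved together. Pdgfra, a receptor of mesenchymal cells, was detected in 100% of collagen-high and 2.82% of Ptprc-detecting cells. Other mesenchymal markers were less exclusive: Col3a1, Thy1 and Col1a2 were detected in 49.3, 38.03 and 36.6% of Ptprc-detecting cells. Pdgfrb and Acta2 were each detected in only 41.3% of collagen-high cells, and in 2.82 and 15.5% of Ptprc-detecting cells. Of the blood progenitor list, Runx1 was detected in 97.8% of collagen-high and 46.5% of Ptprc-detecting cells. Cd34 was detected in 89.1 and 12.7%, and Ly6a in 97.8 and 81.7%. Kit went the other way, with 8.70 and 29.6%, and Gata2 was rare in both, with 4.35 and 2.82%. Adgre1, the macrophage marker F4/80, was detected in 0% of collagen-high and 18.3% of Ptprc-detecting cells.

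Of the 3 genes, Cd55 differed most in detection between collagen-high and Ptprc-detecting cells. It was detected in 33 of 46 collagen-high cells (71.7%, 56.5 to 84.01%), in 13 of 71 Ptprc-detecting cells (18.3%, 10.1 to 29.3%) and in 7 of 53 others (13.2%, 5.48 to 25.3%). Its share was higher in collagen-high than in Ptprc-detecting cells by 53.4 points (Newcombe 95% interval 35.7 to 66.6), by 55.3 in set A and by 49.8 in set B. Among cells with at least 24 assays, the share in Ptprc-detecting cells was 10 of 42 (23.8%, 12.1 to 39.5%) and the difference 47.9 points (27.4 to 62.97). Among cells with at least 40 assays this difference was not seen: Cd55 was detected in 33 of 45 collagen-high cells (73.3%, 58.1 to 85.4%) and in 7 of 9 Ptprc-detecting cells (77.8%, 39.99 to 97.2%), a difference of -4.44 points (-25.9 to 29.8). Only these 9 Ptprc-detecting cells reached that yield, so the interval is wide. Many assays shared this pattern: 55.3% of the 94 assays other than Col1a1 and Ptprc were higher in collagen-high cells by at least 10 points in the same direction in both sets, Cd47 and Cd55 among them, and 44.7% were among cells with at least 24 assays, with Cd55 among them and Cd47 not. At 24 or more assays the median yield was 52 in collagen-high and 34.5 in Ptprc-detecting cells, and at 40 or more it was 52 and 47.

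Median Ct of Cd55 was 18.7 ± 2.03 in the 33 detecting collagen-high cells, from 14.6 to 22.5, and 20.9 ± 3.74 in the 13 detecting Ptprc cells, from 14.02 to 30.3. The ranges overlapped throughout. The difference of the medians was -2.19 cycles (set A -2.45, set B -1.67), with 6 and 7 detecting Ptprc cells in the sets, and -1.75 with at least 40 assays. It was -3.08 in WT cells and -0.84 in EKO cells. In the EKO cells it was 1.46 in set A, from 5 and 4 detecting cells, and -1.16 in set B, from 8 and 2.

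Cd47 was detected in 46 of 46 collagen-high cells, which leaves a lower bound of 92.3%, in 49 of 71 Ptprc-detecting cells (69.01%, 56.9 to 79.5%) and in 11 of 53 others (20.8%, 10.8 to 34.1%). Among cells with at least 24 assays it was detected in 41 of 42 Ptprc-detecting cells, and the difference from collagen-high cells fell from 30.99 to 2.38 points (-5.57 to 12.3). At that yield its median Ct was 16.92 in collagen-high and 17.1 in Ptprc-detecting cells, a difference of -0.22 cycles where the SD over cells was 1.49 and 1.54. The difference was smaller than this spread. Within a genotype it was -0.46 cycles in WT and -0.68 in EKO cells.

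B2m was detected in 46 of 46 collagen-high cells, 70 of 71 Ptprc-detecting cells and 36 of 53 others (67.9%, 53.7 to 80.1%). Its Ct was the least spread of the 3 in collagen-high cells, 13.4 ± 0.98 with a range of 11.2 to 15.1. In Ptprc-detecting cells it was 14.3 ± 2.80, from 9.71 to 22.7, and in the others 18.95 ± 3.96. Restricted to at least 24 assays, B2m in Ptprc-detecting cells had a median of 13.4 ± 1.16, the same to within 0.1 cycle as in collagen-high cells. This held only with the genotypes pooled. Collagen-high minus Ptprc-detecting was -0.35 cycles in WT cells (25 and 14 cells) and 0.41 in EKO cells (21 and 28 cells). The collagen-high class thus held B2m and Cd47 in every cell, with Cd55 in 33 (71.7%) of them, whereas 37 of 71 Ptprc-detecting cells (52.1%) held B2m and Cd47 without Cd55 and 12 held all 3 (16.9%).

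**Figure D3:**
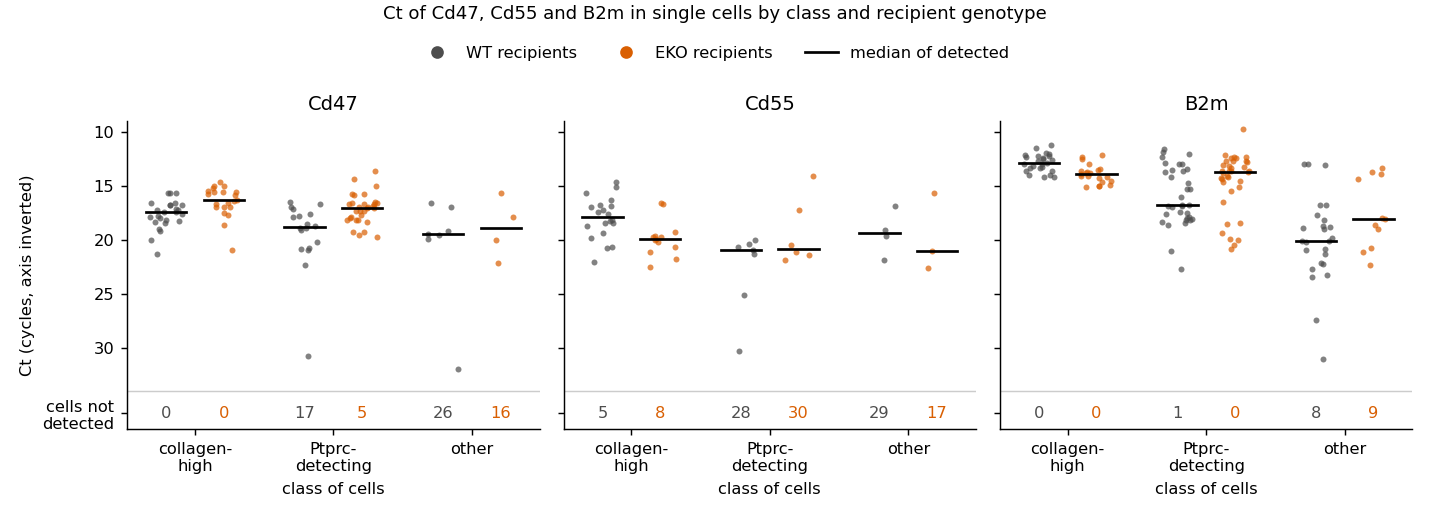
Ct (cycles, axis inverted) of Cd47, Cd55 and B2m in kept cells by class and recipient genotype, 1 point per detecting cell, with the median as a bar and the number of cells without detection below the line. Cd47 and B2m are detected in all 46 collagen-high cells, where Cd55 is missing in 5 WT and 8 EKO cells, and B2m spreads widely in the other classes.

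Between the genotypes, over all kept cells, Cd47 was detected more often and earlier in EKO cells, B2m was detected about equally often and earlier, and Cd55 was detected about equally often and later. Cd47 was detected in 50 of 93 WT cells (53.8%, 43.1 to 64.2%) and 56 of 77 EKO cells (72.7%, 61.4 to 82.3%). The difference was 18.96 points (4.36 to 32.3), 17.1 for set A and 20.8 for set B. Without the filter, which left out 19 EKO and 3 WT cells, it was 6.25 points (-7.69 to 19.9), and with the same weights over terciles of assays detected it was 7.36, both under the size rule. By the size rule of at least 10 points in the same direction in both sets, 20.8% of the 96 assays were higher in EKO and 0% lower, with Cd47 among the former. For Cd55 the counts were 31 of 93 in WT (33.3%) against 22 of 77 in EKO (28.6%), and for B2m 84 of 93 (90.3%) against 68 of 77 (88.3%). Neither met the rule, and the intervals of their differences ran from -18.2 to 9.23 and from -12.1 to 7.40 points.

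Ct of Cd47 in WT cells ran from 15.6 to 31.9 with a median of 17.9 ± 3.03, and in EKO cells from 13.6 to 22.1 with a median of 16.9 ± 1.64. Ct of B2m ran from 11.2 to 30.97 in WT with a median of 15.3 ± 3.96, and from 9.71 to 22.3 in EKO with a median of 13.97 ± 2.70. Ct of Cd55 ran from 14.6 to 30.3 in WT with a median of 18.7 ± 3.07, and from 14.02 to 22.6 in EKO with a median of 20.1 ± 2.28. The ranges of the genotypes overlapped for each gene, and each difference of medians was smaller than the SD over cells of at least 1 genotype.

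The median Ct, EKO minus WT, was -1.03 cycles for Cd47, -1.31 for B2m and 1.37 for Cd55. By a rule of 1 cycle or more, the sets agreeing in sign and each holding 10 or more detecting cells per genotype, 38.3% of 47 assays were earlier in EKO, Cd47 and B2m among them, and 8.51% were later, Cd55 among them. Over the 47 assays the median difference was -0.84, so the differences of Cd47 and B2m stood near the middle of the panel, at places 21 and 19 from the earliest, while Cd55 was 4th from the latest. The Cd55 difference rested mostly on set A, at 3.21 cycles, against 0.11 for set B. The EKO cells also had more assays detected, and the same comparisons follow in cells of higher yield.

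Among cells with at least 24 assays, 42 WT and 53 EKO, Cd47 and B2m were detected in nearly every cell of both genotypes and the difference in Cd55 detection was larger. Cd47 was detected in 41 of 42 and 53 of 53, B2m in all. Cd55 was detected in 26 of 42 WT cells (61.9%, 45.6 to 76.4%) and 21 of 53 EKO cells (39.6%, 26.5 to 54%). This is a difference of -22.3 points (-40.1 to -2.08), -10 for set A and -38.5 for set B. With at least 40 assays it was -9.20 points (-30.7 to 13.6). Yield was not matched between the genotypes among cells with at least 24 assays: 29 of the 42 WT and 30 of the 53 EKO cells had at least 40. Collagen-high cells made up 25 of the 42 WT cells (59.5%) and 21 of the 53 EKO cells (39.6%), and the part of this mix in the difference was not tested. By the same size rule 11.5% of assays were lower in EKO here, Cd55 among them, and 4.17% higher. In the set A cells the interval of the Cd55 difference, from -34.9 to 16.8 points, includes 0.

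At this yield the sign of the B2m difference turned. Median Ct was 12.95 ± 0.97 in WT, from 11.2 to 16, and 13.7 ± 1.02 in EKO, from 9.71 to 15.4, a difference of 0.71 cycles (0.58 in set A, 0.82 in set B). Cd47 kept its sign, with 17.6 ± 1.43 in WT and 16.7 ± 1.61 in EKO and a difference of -0.91 (-0.97 in set A, -0.80 in set B). Cd55 came at 18.3 ± 3.04 in WT and 20.03 ± 2.24 in EKO, a difference of 1.71 (3.31 in set A, 0.58 in set B). By the cycle rule 17.8% of 45 assays were earlier and 8.89% later in EKO, with Cd55 among the latter and Cd47 and B2m in neither group. In the cells with 10 to 23 assays, of which 51 were WT and 24 EKO, B2m had medians of 18.5 and 19.4, later in EKO with the sets pooled. This direction was that of set A only. In set B the EKO cells of this bin that detected B2m stood at 16.4, 18.1, 18.6 and 20.7, and their median was not later than that of the WT cells.

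**Figure D4:**
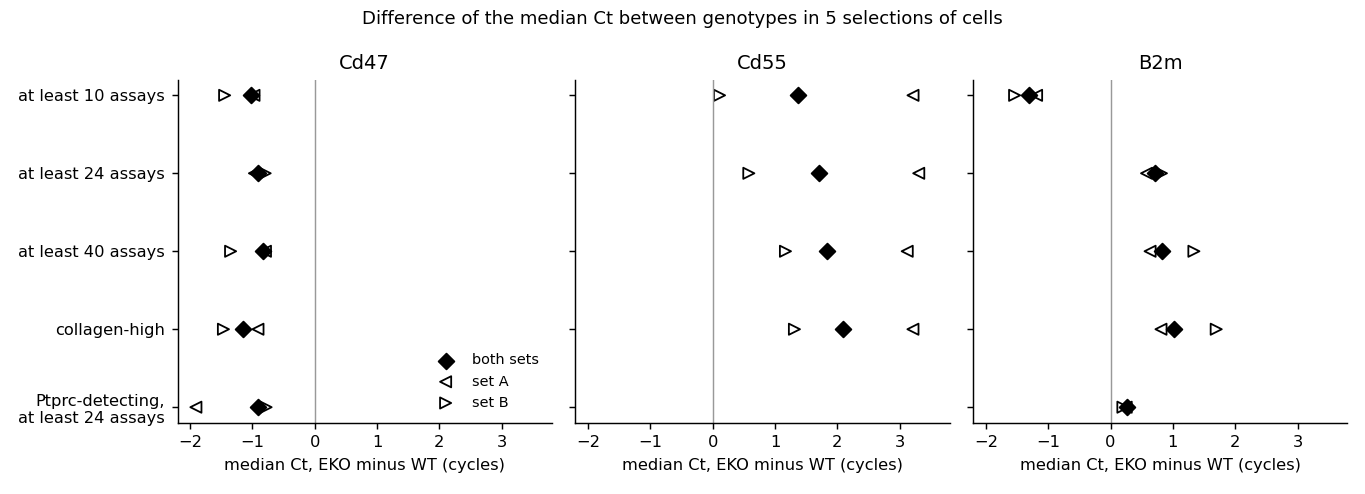
Difference of the median Ct, EKO minus WT (cycles; negative values are earlier in EKO), for Cd47, Cd55 and B2m in 5 selections of cells; diamonds are both sets together and triangles set A or set B, and a point is drawn where at least 5 cells per genotype detected the gene. Cd47 is negative in all 5 selections, Cd55 positive in the 4 drawn, and B2m negative only for cells with at least 10 assays. The Cd55 value not drawn, for Ptprc-detecting cells with at least 24 assays, was -0.19 cycles from 4 WT and 6 EKO cells.

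Collagen-high cells had a median of 51 assays in WT and 53 in EKO recipients (set A 51 and 57, set B 52 and 52.5), and all 46 had at least 24. In these cells Cd47 was detected earlier in EKO recipients, and Cd55 and B2m later, in both sets. Ct of Cd47 in the 25 WT cells ran from 15.6 to 21.2 with a median of 17.4 ± 1.32, and in the 21 EKO cells from 14.6 to 20.95 with a median of 16.3 ± 1.45. The difference was -1.14 cycles, smaller than the SD over cells of either genotype, from medians of 17.8 and 16.9 in set A and of 17.1 and 15.6 in set B. It was -0.39 in the collagen-high cells without Ptprc and -1.68 in the 31 with it. Of the EKO cells 17 of 21 had Cd47 before the WT median, and 3 of 25 WT cells had it before the EKO median.

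Ct of B2m ran from 11.2 to 14.2 in WT with a median of 12.8 ± 0.81, and from 12.1 to 15.1 in EKO with a median of 13.9 ± 0.87. The difference was 1.02 cycles, from medians of 13.05 and 13.9 in set A and of 12.2 and 13.9 in set B. It exceeded the SD over cells of both genotypes. Of the EKO cells 3 of 21 had B2m before the WT median, and 21 of 25 WT cells had it before the EKO median. The ranges overlapped, with 14 of 21 EKO cells inside the WT range.

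Cd55 was detected in 20 of 25 WT cells (80%, 59.3 to 93.2%) and 13 of 21 EKO cells (61.9%, 38.4 to 81.9%), a difference of -18.1 points whose interval, -41.9 to 7.73, includes 0. The sets went apart: 11 of 16 WT and 5 of 7 EKO cells in set A, and 9 of 9 and 8 of 14 in set B. In detecting cells its Ct ran from 14.6 to 22.02 in WT with a median of 17.8 ± 1.92, and from 16.6 to 22.5 in EKO with a median of 19.9 ± 1.69. The difference was 2.09 cycles, larger than the SD over cells of either genotype, from medians of 17.4 and 20.6 in set A and of 18.4 and 19.7 in set B. In set A all 11 WT values lay between 14.6 and 19.8 and the 5 EKO values between 19.7 and 22.5, so the 2 groups met only at their edges. In set B they overlapped, from 16.7 to 22.02 and from 16.6 to 21.8.

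These directions stood against a panel that came earlier in EKO collagen-high cells. Over 47 assays with 5 or more detecting cells of each genotype in each set, the median difference was -0.67 cycles, 36 were earlier in EKO and 11 later. By the cycle rule 34% were earlier, Cd47 among them, and 8.51% were later, which is 4 assays with Cd55 and B2m among them. Cd55 was the 2nd and B2m the 4th from the latest, and Cd47 the 16th from the earliest. By share, 12.6% of 95 assays were higher and 8.42% lower in EKO by the size rule, with none of the 3 genes in either group. Actb came at 10.8 ± 1.44 in WT and 9.97 ± 1.56 in EKO collagen-high cells, and Rn18s, the 18S ribosomal RNA, at 5.79 ± 0.45 and 4.88 ± 0.39. With the sets pooled, both reference genes thus moved in the direction of Cd47 and against B2m and Cd55. Median Ct of Actb was 10.9 in WT and 9.95 in EKO cells of set A, and 10.7 and 9.97 in set B. Rn18s was not split by set in this class, where set A held 16 of the WT and 7 of the EKO cells. The Rn18s level differed between the sets, so set and genotype are not separated in its pooled difference. Among cells with at least 24 assays, its set A medians were 5.96 in WT and 5.57 in EKO. Its set B medians were 4.98 and 4.77. With each cell's Actb Ct subtracted, the differences were -0.57 cycles for Cd47, 1.83 for B2m and 3.29 for Cd55, and with the cell's own median Ct subtracted they were -0.96, 1.48 and 2.13.

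**Figure D5:**
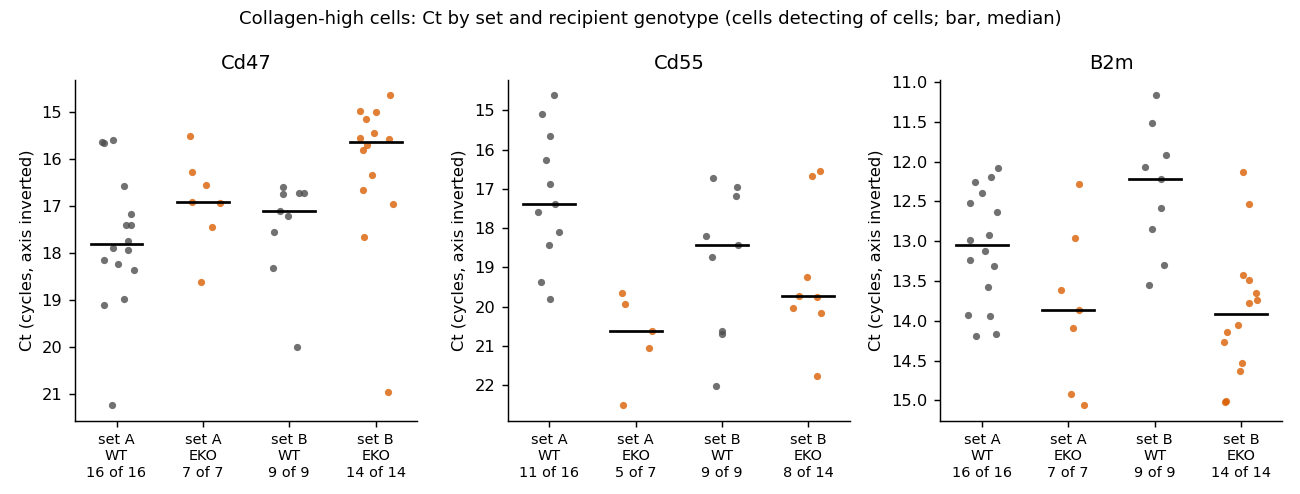
Ct (cycles, axis inverted) of Cd47, Cd55 and B2m in collagen-high cells by set and recipient genotype, 1 point per detecting cell with the median as a bar and the number of detecting cells under each group. In both sets the EKO median is higher on the plot for Cd47 and lower for Cd55 and B2m, and the points of the genotypes overlap.

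In Ptprc-detecting cells Cd47 again came earlier in EKO recipients, and the B2m difference depended on the yield. Over all 71 such cells Cd47 was found in 18 of 35 from WT (51.4%) against 31 of 36 from EKO recipients (86.1%), and B2m came at 16.8 ± 2.72 and 13.7 ± 2.76. Here the yield differed, with a median of 21 assays in WT and 30.5 in EKO. With at least 24 assays, 14 WT and 28 EKO cells were left, B2m came at 13.2 ± 1.26 and 13.5 ± 1.13, and Cd47 at 17.9 ± 1.61 and 16.95 ± 1.33. The Cd47 difference of -0.92 cycles was smaller than the SD over cells and had the same sign in set A (-1.91) and set B (-0.78). The B2m difference was 0.26 cycles. The number of assays was not matched between the genotypes in this selection. Cd55 was detected in 4 of 14 and 6 of 28 of these cells, too few to set levels side by side. Over all 71 Ptprc-detecting cells it was detected in 7 WT and 6 EKO cells, at medians of 20.9 and 20.8. The difference of -0.15 cycles (set A -1.65, set B -0.01) did not show the later Cd55 of EKO collagen-high cells, but it rests on few cells. Whether the B2m and Cd55 differences are particular to collagen-high cells was not tested.

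The genes most like each of the 3 across cells were found by Spearman's rho of Ct over cells that detected both, given as a description because all assays of a cell share its yield. Cells of both genotypes were pooled for every rho. For B2m they were Actb (rho 0.73, 148 cells), Ly6a (0.70, 131 cells), which encodes the progenitor antigen Sca-1, and Cd34 (0.69, 55 cells), a sialomucin of progenitor, endothelial and some stromal cells. In cells with at least 24 assays the rho with Actb fell to 0.15, while that with Cd34 was 0.66, and it was 0.74 over 41 collagen-high cells. For Cd47 they were Hif1a (0.68, 103 cells), which encodes the oxygen-regulated subunit of HIF-1, Ly6a (0.64, 97 cells) and Eng (0.57, 50 cells), an accessory receptor for TGF-beta ligands. Hif1a stayed at 0.62 in cells with at least 24 assays and 0.61 in 46 collagen-high cells. For Cd55 they were Timp2 (0.66, 44 cells), an inhibitor of matrix metalloproteinases, Ccl2 (0.66, 40 cells), a monocyte chemokine, and Ly6a (0.50, 52 cells).

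Among the 3 genes themselves, Cd55 and B2m had a rho of 0.44 over 53 cells and 0.55 over 33 collagen-high cells. Cd55 and Cd47 had 0.08 over 50 cells, and Cd47 and B2m 0.37 over 105 cells and -0.02 over 46 collagen-high cells. Within the collagen-high class, with the genotypes pooled, the Ct of Cd55 and that of B2m ranked cells partly alike, and Cd47 ranked them otherwise. The median Ct of each gene differed between the genotypes in this class, and rho within a genotype was not computed.

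In detection, Cd55 was most like Cd34, Vegfa, the endothelial growth factor, and Timp1, another metalloproteinase inhibitor, by the phi coefficient over 95 cells with at least 24 assays. Phi was 0.62 and 0.56 in sets A and B for Cd34, 0.50 and 0.43 for Vegfa, and 0.55 and 0.43 for Timp1. Within collagen-high cells Cd34 was detected in 33 of 33 cells with Cd55 and in 8 of 13 without (61.5%), and the medians of assays detected were 53 and 49. Within Ptprc-detecting cells of at least 24 assays it was detected in 5 of 10 with Cd55 and 2 of 32 without (6.25%), at medians of 45.5 and 33 assays. Cd34 was thus detected more often with Cd55 inside both classes, next to a difference in yield that was larger in the second. These cells are among the 95 by which Cd34 was picked, so the counts are no separate evidence of a link. Timp1 was detected in 32 of 33 collagen-high cells with Cd55 and 13 of 13 without, and Vegfa in 33 of 33 and 11 of 13. In the Ptprc-detecting cells Timp1 was detected in 6 of 10 and 2 of 32, and Vegfa in 5 of 10 and 8 of 32. B2m and Cd47 were detected in all or nearly all of these cells and gave no such measure.

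The panel reached few partners of the 3 proteins. Of 11 listed partners of Cd47, 3 were measured: the integrin chains Itgb3 and Itga5 and the VEGF receptor Kdr. Of 13 listed complement genes and 12 genes of MHC class I and its regulation, 0 were measured, so neither a complement partner of Cd55 nor a heavy chain for B2m can be described here. Itgb3 was detected in 78.3% of collagen-high and 30.99% of Ptprc-detecting cells, Itga5 in 93.5 and 21.1%, and Kdr in 28.3 and 8.45%. With at least 24 assays, which all collagen-high cells had, the Ptprc-detecting shares were 50% for Itgb3, 30.95% for Itga5 and 14.3% for Kdr. Among cells with at least 24 assays, the share with Itgb3 was 64.3% in WT and 64.2% in EKO at a median Ct of 17.8 and 17.6, and Itga5 in 76.2 and 54.7% at 18.95 and 15.9. Kdr was detected in 26.2 and 22.6%, at 23.2 and 21, from 11 WT and 12 EKO cells. Itga5 was thus detected less often in EKO cells but came earlier where detected, and of the 3 partners it differed most between the genotypes. Collagen-high cells made up 59.5% of these WT cells and 39.6% of these EKO cells, and the part of this mix in the difference was not tested. By the size rule, 11.5% of the 96 assays were lower in EKO at this yield, and by the cycle rule 17.8% of 45 assays were earlier. The values of the 3 partners were not split by set.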

How the data were processed

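Microfluidic TaqMan assays were run on single sorted cells, per the labels. The authors deposited 1 table of values, assays by cells, with no unit named. The deposited values were taken for raw Ct because they end at 40, where 12852 of 18432 stand, and the table is described as not normalized. The sources used here do not give the preamplification, instrument software or threshold. The genotype came from the labels and the set from the letter that opens each title. No column was left unused, and 0 pairs of cells were identical.

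Ct was used without normalization. Shares have exact Clopper-Pearson 95% intervals, shares of 0 a limit of 3 counts, differences of shares Newcombe intervals, and levels a median with the SD over detecting cells. With 1 sample per genotype there was no test. The 3 genes, the classes, the gene lists and the size rules were chosen with earlier results of these data known. Cells with at least 40 assays, the early and late B2m groups and the levels within collagen-high cells were chosen after seeing the values. Genes named were the 3, the reference and class genes, measured list members, a marker of each class and the 3 assays most like each gene. Promoters and positions came from RefSeq tables of GRCm38.p6, used by symbol, with all 3 genes matched. The functions were tested on simulated data. Python 3.11.15, NumPy 2.4.6, pandas 2.3.3, SciPy 1.17.1 and Matplotlib 3.10.9 were used.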

Additional observations from a re-analysis of the deposited data

How the results depend on the processing

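Over 17 results, 160 alternatives were computed. Of these, 134 kept the value within its interval (shares) or within 1 cycle, 21 moved it without reversing a difference that met its size rule, and 5 reversed such a difference. The sign turned in 12 in all. The difference in Cd47 share, EKO minus WT, was 2.38 points with at least 24 assays, 0 with at least 40 and -1.21 in cells of neither class, and that between the classes was 2.38 points with at least 24 assays and 0 with at least 40. The difference in B2m Ct, -1.31 cycles as reported, was 0.71 with at least 24 assays, 0.82 with at least 40, 0.38 with Actb subtracted and -0.082 with the cell's own median subtracted. Its share difference was -14.6 points with no filter on cells and -20.8 in cells of neither class. The Cd55 share difference was -22.3 points with at least 24 assays, as was that of cells with all 3 genes, and -42.9 in collagen-high cells of set B. Among differences under the size rule the sign also turned for the Cd55 share in cells of neither class (2.88 points) and in collagen-high cells of set A (2.68), and for the share with all 3 genes in set A (0.64). Its Ct difference was 3.21 cycles for set A alone and 0.11 for set B alone, and within collagen-high cells 3.21 for set A alone and 3.29 with Actb subtracted. Between collagen-high and Ptprc-detecting cells, Cd55 Ct differed by -0.89 cycles without the collagen-high cells that detect Ptprc and by -3.23 with Actb subtracted, and the share difference turned to -4.44 points with at least 40 assays. Cd47 Ct differed by 1.04 with the own median subtracted and 0.24 with at least 40 assays, and B2m Ct by 0.31 and 0.54 in those settings, -2.11 in set A and -1.97 by the mean. A higher minimum of assays leaves out cells with few detections, and having no filter lets more of them in. The cause of the changes was not tested for any setting.

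No paired analysis was possible because no result comes from a test and the labels name no animals. The main limits are the single sample per genotype, the order of cells within each set being fixed by genotype, and the number of cells: 13 EKO and 20 WT collagen-high cells carry the Cd55 level. A Ct difference compares levels of 1 gene only, on a scale whose efficiency per cycle is not given.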
